A study of Mus musculus with 6 samples.

Results

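The genes described here are 10 markers of leukocytes that reside in or near epithelia, chosen by symbol from the 25006 genes of a count table of mouse corneal epithelium: Ptprc, Csf1r, C1qa, C1qb, C1qc, Cd74, H2-Aa, H2-Ab1, Tyrobp and Cd207. All 10 symbols matched 1 row each. Total RNA from sheets of corneal epithelium was sequenced in 3 libraries labelled EphA2 null and 3 libraries labelled wild type. Age, sex, strain and the construction of the null allele are not given in the labels. The series title places the comparison in work on cilia, autophagy and the layering of this epithelium. The sample titles also carry a number, whose meaning the labels do not give, and it falls into a higher and a lower range. Labelled EphA2 null 2 and 3, which share a number, and wild type 3 are called the higher-number libraries. Labelled EphA2 null 1 and wild type 1 and 2, which share a number, are called the lower-number libraries.

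The corneal epithelium is populated sparsely by bone-marrow-derived cells, mainly macrophages and dendritic cells, which are denser towards the limbus and conjunctiva. Ptprc encodes CD45, a phosphatase on all nucleated blood cells, and Csf1r encodes the receptor for CSF1 and IL-34 on which most tissue macrophages depend. C1qa, C1qb and C1qc encode the chains of C1q, the recognition unit of the classical complement pathway, which macrophages make. H2-Aa and H2-Ab1 encode the alpha and beta chain of a mouse MHC class II molecule, and Cd74 its invariant chain, in cells that present antigen to T cells. Tyrobp encodes DAP12, an adaptor that passes signals from receptors of myeloid and NK cells, and Cd207 encodes langerin, the lectin of Langerhans cells.

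Epha2 was not lower in the libraries that carry the null label. Its level was 285, 653 and 578 CPM in labelled EphA2 null 1, 2 and 3, against 298, 253 and 563 CPM in wild type 1, 2 and 3, where CPM is a gene's read count scaled to a common, TMM-normalised library size. It was higher in the higher-number than in the lower-number libraries (log2 fold change 1.05 ± 0.11 SE, adjusted p = 0.00190, edgeR). The genotype is therefore given by label only. Total counts lay between 15308013 and 27586942 per library. The epithelial keratin genes Krt5 and Krt12 averaged 26970 and 14590 CPM over the 6 libraries. The stromal genes Kera and Lum and the endothelial gene Kdr had 0 counts in all of them. Nothing in the labels says that the 6 libraries are separate animals, so p-values measure the spread between these libraries, which may be technical.

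Promoter sequence is shown for the members whose levels moved together below and that have a window in the RefSeq table used here. It held windows for 5 of the 10 members (Ptprc, C1qb, C1qc, H2-Aa and Cd207). Each sequence is the 250 bases before an annotated RefSeq start in GRCm38.p6, 5′ to 3′ on the gene's own strand, which is the minus strand for all 4 shown. These starts differ in part from the GENCODE gene positions given below. The Ptprc window lies wholly inside the GENCODE gene, which runs to 138175708. The C1qc window overlaps its GENCODE gene, which runs to 136893065. Capitals mark 3 short motifs, found on either strand. They are GGAAGT (or ACTTCC), a core bound by ETS factors such as PU.1, the master factor of myeloid cells; ATTGG (or CCAAT), the Y box of class II promoters; and TGACGTCA, the form of a cAMP-response element found at the X2 box of class II promoters. The motifs were chosen after the sequences were seen and did not overlap in these windows.
H2-Aa, chr17:34287824-34288073: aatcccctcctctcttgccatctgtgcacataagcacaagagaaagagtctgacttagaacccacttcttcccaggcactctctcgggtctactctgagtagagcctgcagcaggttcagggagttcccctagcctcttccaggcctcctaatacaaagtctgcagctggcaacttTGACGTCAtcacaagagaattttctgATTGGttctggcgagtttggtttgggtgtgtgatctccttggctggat
C1qb, chr4:136886201-136886450: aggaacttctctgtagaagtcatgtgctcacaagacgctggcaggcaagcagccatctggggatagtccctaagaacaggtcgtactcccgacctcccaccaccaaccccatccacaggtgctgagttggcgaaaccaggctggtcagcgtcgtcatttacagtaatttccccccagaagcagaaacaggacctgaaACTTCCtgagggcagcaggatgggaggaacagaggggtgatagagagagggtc
C1qc, chr4:136892915-136893164: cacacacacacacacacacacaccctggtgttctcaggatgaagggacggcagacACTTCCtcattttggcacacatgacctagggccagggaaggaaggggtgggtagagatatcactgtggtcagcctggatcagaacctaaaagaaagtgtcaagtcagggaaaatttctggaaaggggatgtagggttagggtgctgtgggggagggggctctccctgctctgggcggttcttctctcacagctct
Ptprc, chr1:138175306-138175555: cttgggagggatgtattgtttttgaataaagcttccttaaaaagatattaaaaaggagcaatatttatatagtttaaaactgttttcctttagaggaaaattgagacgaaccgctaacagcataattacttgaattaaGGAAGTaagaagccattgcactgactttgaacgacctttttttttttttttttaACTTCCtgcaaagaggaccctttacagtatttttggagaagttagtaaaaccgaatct

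H2-Aa held TGACGTCA at bases -74 to -67 and ATTGG at bases -48 to -44 before its start, in the order X2 then Y, and no ETS core. Over all 32851 windows of the table, 1.55% held TGACGTCA, 33.8% held ATTGG and 0.527% held both. The ETS core stood once in the C1qb window (-53 to -48), once in the C1qc window (-195 to -190) and at 2 places in the Ptprc window (-112 to -107 and -58 to -53), and 19.7% of all windows held it. The window of a second Ptprc start, overlapping the first and also inside the GENCODE gene, held it once. The Cd207 window held none of the 3 motifs. These matches are descriptions of letters and not measured binding.

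The members were expressed at low levels, and most of their reads came from the class II genes. They had 2271 counts in all over the 6 libraries, of which Cd74, H2-Aa and H2-Ab1 held 76.6% and the 3 C1q genes 12.2%. Their summed level was 29.8, 6.20 and 3.92 CPM in labelled EphA2 null 1, 2 and 3, against 40.6, 25.1 and 8.10 CPM in wild type 1, 2 and 3. The 3 higher-number libraries were the 3 with the least, in both genotypes. In bulk RNA, fewer leukocytes and less RNA of these genes per leukocyte cannot be told apart.

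Among the class II genes, Cd74 had 11.5, 3.15 and 1.53 CPM in labelled EphA2 null 1, 2 and 3, against 15.2, 9.20 and 3.44 CPM in wild type 1, 2 and 3. H2-Aa (chromosome 17, 34282744 to 34287823 in GRCm38) had 8.07, 0.984 and 0.710 CPM in labelled EphA2 null 1, 2 and 3, against 11.7, 5.71 and 1.76 CPM in wild type. H2-Ab1 (chromosome 17, 34257689 to 34269419) had 3.30, 0.689 and 0.224 CPM with the null label, against 5.16, 3.67 and 1.15 CPM in wild type. For each of the 3 genes wild type 1 was the highest library and labelled EphA2 null 3 the lowest. The groups of genotype overlapped, since labelled EphA2 null 1 lay above wild type 3 for all 3 genes.  Cd74 made up 50.2%, 65.3% and 62.1% of their counts in labelled EphA2 null 1, 2 and 3, against 47.5%, 49.5% and 54.3% in wild type 1, 2 and 3. In the smallest set, the 66 counts of labelled EphA2 null 3, the exact 95% interval of that share ran from 49.3% to 73.8%.

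The C1q genes lie side by side on chromosome 4 in GRCm38, C1qb at 136880129 to 136886187, C1qc at 136889804 to 136893065 and C1qa at 136895917 to 136898803. They are between 4.40 and 4.42 Mb from Epha2 on the same chromosome. C1qa had 0.917, 0.0492 and 0.411 CPM in labelled EphA2 null 1, 2 and 3, against 1.495, 1.22 and 0.338 CPM in wild type 1, 2 and 3. C1qb had 1.15, 0.492 and 0.0747 CPM with the null label, against 1.93, 0.990 and 0.203 CPM in wild type. C1qc had 1.19, 0.0984 and 0.336 CPM with the null label, against 1.59, 0.874 and 0.473 CPM in wild type. Over the 6 libraries the 3 chains had nearly equal counts, 89 for C1qa, 97 for C1qb and 92 for C1qc. In the lower-number libraries each chain took between 28.2% and 39.6% of the C1q counts. In the higher-number libraries only 13 to 22 C1q counts remained per library, and single chains had as few as 1 or 2. Labelled EphA2 null 2 had 1, 10 and 2 counts of C1qa, C1qb and C1qc, while labelled EphA2 null 3 had 11, 2 and 9.

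Csf1r, on chromosome 18, had 0.963, 0.148 and 0.224 CPM in labelled EphA2 null 1, 2 and 3, against 1.25, 1.57 and 0.270 CPM in wild type 1, 2 and 3. Its exons overlap those of Hmgxb3 on the other strand, and the strand setting of the counting is not given in the sources used here. Hmgxb3 was higher in the higher-number libraries (log2 fold change 0.85, adjusted p = 0.00367, edgeR), with 17.98, 36.3 and 38.1 CPM in labelled EphA2 null 1, 2 and 3 against 23.1, 17.7 and 33.1 CPM in wild type 1, 2 and 3. Tyrobp (chromosome 7, 30413760 to 30417585) had 0.688, 0.246 and 0.112 CPM in labelled EphA2 null 1, 2 and 3, against 0.675, 0.291 and 0.135 CPM in wild type. Ptprc (chromosome 1, 138062861 to 138175708) had 1.93, 0.246 and 0.261 CPM with the null label, against 1.40, 1.40 and 0.270 CPM in wild type. Ptprc and Tyrobp were the members whose highest library carried the null label. For Ptprc that was 42 counts in labelled EphA2 null 1 against 29 and 24 in wild type 1 and 2.

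Cd207 (chromosome 6, 83671215 to 83677857) was close to absent. It had 2, 2 and 1 counts in labelled EphA2 null 1, 2 and 3, against 3, 2 and 1 counts in wild type 1, 2 and 3, so each library lay at or under 0.145 CPM. It was the sole member whose higher-number and lower-number libraries overlapped in CPM. The defining marker of Langerhans cells thus gave 11 reads in the whole table, against 1740 for the class II genes.

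**Figure D1:**
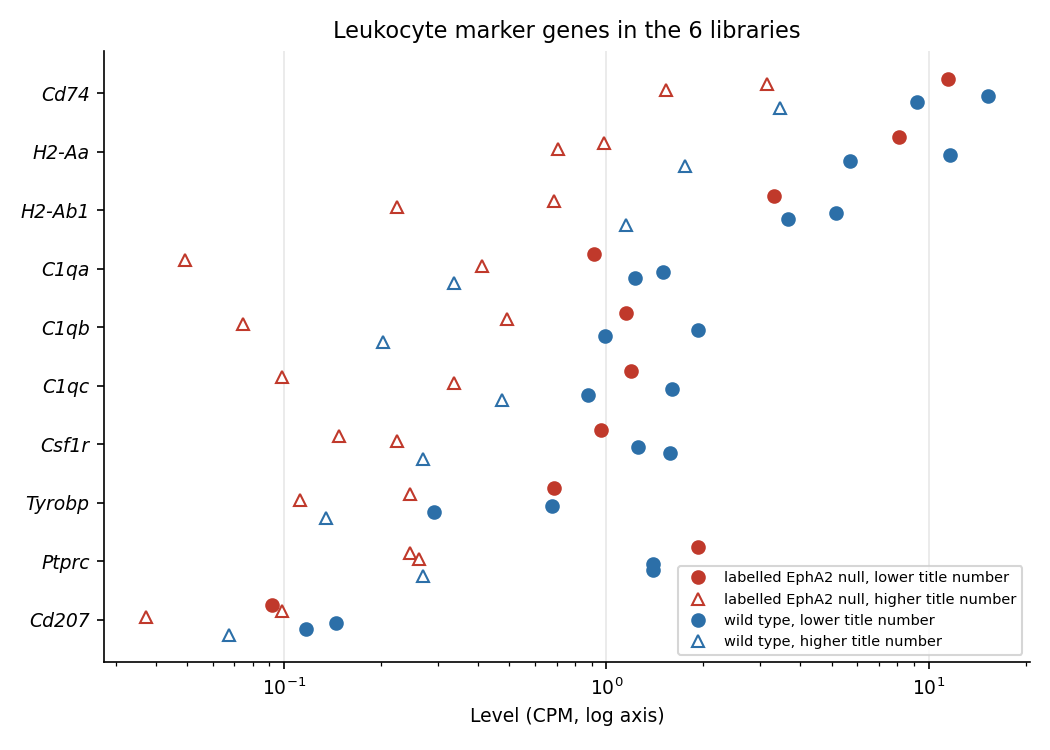
Level of each of the 10 genes in each library, in CPM on a log axis; red marks libraries labelled EphA2 null, blue wild type, filled circles lower and open triangles higher title numbers. For 9 genes all open triangles lie left of all filled circles, and Cd207 is the exception.

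Per kilobase of exon, averaged over the 6 libraries, Cd74 had the highest level, 4.37 CPM per kb, and it led H2-Aa (1.27 CPM per kb) in 6 of 6 libraries. H2-Aa led H2-Ab1 (0.921) in 5 of 6 and H2-Ab1 led C1qb (0.741) in 5 of 6. C1qb and C1qa (0.711) changed places between libraries, with C1qb first in 3 of 6. So did C1qa and Tyrobp (0.537), with C1qa first in 4 of 6, and Tyrobp and C1qc (0.394), with Tyrobp first in 3 of 6. The 4 genes from C1qb to C1qc therefore had no stable order. C1qc led Csf1r (0.128) in 6 of 6 libraries. Csf1r led Cd207 (0.0609) in 5 of 6, and Cd207 led Ptprc (0.0501) in 5 of 6. For Ptprc the length counts all annotated exons, 18.3 kb, which lowers its value per kb.

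Against wild type, none of the members passed the test in the libraries labelled EphA2 null. In edgeR's quasi-likelihood test with genotype as the only term, 8 members entered the test, and Tyrobp and Cd207 fell under the filter on low counts. Of these 8, 0 were called at an adjusted p under 0.05 and 0 had an unadjusted p under 0.05. Over all 12847 genes tested, 0.00778% were called and 1.18% had an unadjusted p under 0.05. DESeq2 and limma voom also called 0 of 8 members, beside 0.0467% and 0.00778% of all genes. Without the filter edgeR called 0 of 10, beside 0.00544%. In 0 of 10 members did the genotypes lie apart without overlap, beside 3.73% of the genes tested. The fold changes of the 8 were below 0, with a median log2 fold change of -0.96 beside 0.01 for all genes tested, and without the filter those of all 10 were below 0. The largest were those of H2-Ab1, which averaged 1.41 ± 1.66 CPM with the null label against 3.33 ± 2.03 CPM in wild type (SD, n = 3 each), with -1.27 ± 0.90 (SE) on the log2 scale, and of Csf1r, -1.24 ± 0.80. For C1qa the log2 fold change was -1.16 ± 0.81, for H2-Aa -0.99 ± 0.98, for C1qb -0.93 ± 0.92, for C1qc -0.88 ± 0.79, for Cd74 -0.80 ± 0.77 and for Ptprc -0.37 ± 0.89. The adjusted p was 0.9996 for each in edgeR. In simulated data the genotype fit recovered only 44% of 2-fold and 4% of 1.5-fold changes. The absence of calls therefore does not show that the members were equal between the genotypes.

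With the null label the SD exceeded the mean for Ptprc, Csf1r, C1qc, H2-Aa and H2-Ab1, while in wild type it stayed below the mean for all 10 members. Cd74 averaged 5.38 ± 5.33 CPM with the EphA2 null label, against 9.30 ± 5.90 CPM in wild type (SD over 3 libraries each). Ptprc averaged 0.811 ± 0.966 CPM with the EphA2 null label, against 1.02 ± 0.652 CPM in wild type. In both genotypes the higher-number libraries were the low ones, and 2 of 3 libraries labelled EphA2 null had a higher number, against 1 of 3 wild type libraries. The median log2 fold change of the members was -2.08 without labelled EphA2 null 1, which leaves that group with higher numbers only, and -0.28 without wild type 1. It was -0.57 without labelled EphA2 null 2, -0.50 without labelled EphA2 null 3 and -0.37 once the model also held the range of title numbers. None of these fits called a member. Without labelled EphA2 null 1, 7 of 8 members had an unadjusted p under 0.05 in edgeR, with an adjusted p of 0.527. The share of all genes at that unadjusted p was not counted for this fit. With the range of title numbers as a term, 0.00761% of all genes were called by edgeR and 0.137% by DESeq2.

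**Figure D2:**
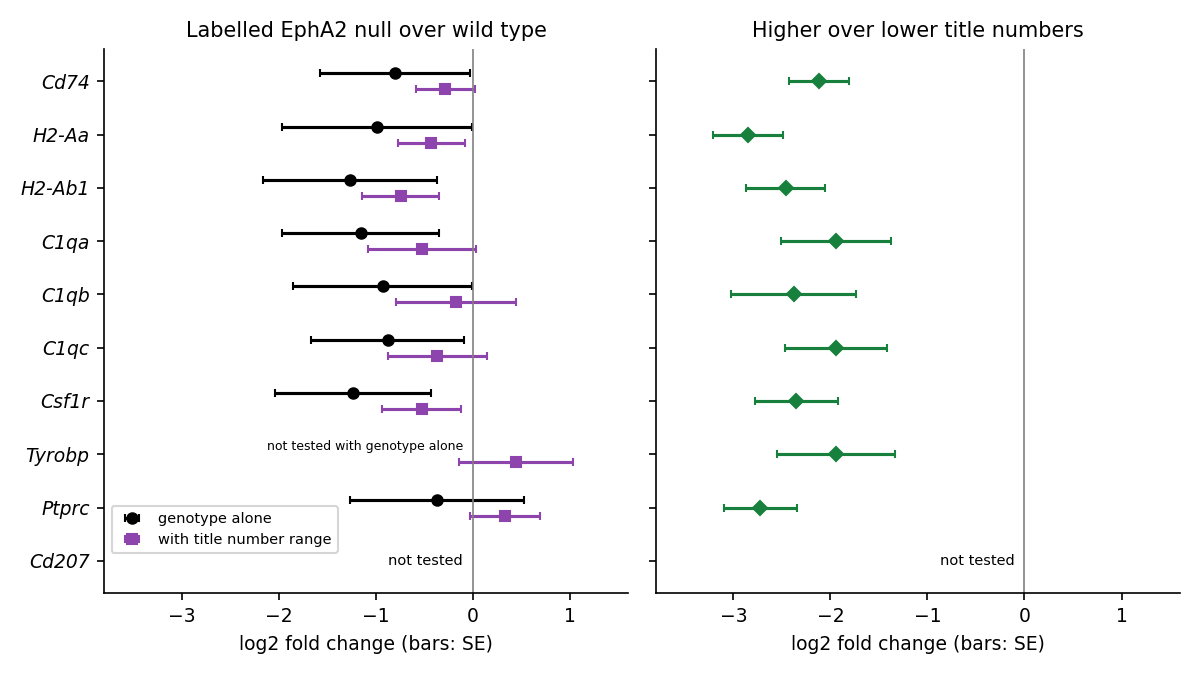
log2 fold changes of the members with their SE from edgeR, on the left for labelled EphA2 null over wild type with genotype alone (black) and with title number range as a term (purple), on the right for higher over lower title numbers with genotype as a term (green). The purple points lie closer to 0 or beyond it, and all green points lie at -1.94 or below.

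The members separated instead by the title number. With genotype as a term, edgeR called 9 of the 9 members that entered the test lower in the higher-number than in the lower-number libraries. Over all 13147 genes tested, 21.6% were called lower and 22.9% higher, so a difference between these libraries was common. Cd74 and H2-Aa had between 19 and 64 counts in each higher-number library. Ptprc, Csf1r, the C1q chains and Tyrobp had at most 11 there and passed the filter through the lower-number libraries in which they were high. Without the filter all 10 members entered, and 9 of 10 were called lower beside 16.6% of 18389 genes, Cd207 being the exception (log2 fold change -0.68 ± 1.33 SE, adjusted p = 0.740, edgeR). The median log2 fold change of the 9 members was -2.35, beside -0.03 for all genes tested. This difference was known from earlier results of these data when the genes were chosen.

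H2-Aa, Ptprc, Cd74 and H2-Ab1 had the smallest adjusted p-values of the members. H2-Aa averaged 1.15 ± 0.542 CPM in the higher-number and 8.49 ± 3.004 CPM in the lower-number libraries (SD, n = 3 each), and the log2 fold change was -2.85 ± 0.36 (SE, edgeR, adjusted p = 0.00221). Its summed counts were 65 in the higher-number and 516 in the lower-number libraries, a depth-adjusted ratio of 0.121 with an exact 95% interval of 0.0924 to 0.157 that covers counting error only. Ptprc averaged 0.259 ± 0.0122 CPM in the higher-number and 1.57 ± 0.305 CPM in the lower-number libraries, with a log2 fold change of -2.72 ± 0.38 (adjusted p = 0.00255). The small SD rests on 5, 7 and 4 counts in labelled EphA2 null 2 and 3 and wild type 3, and does not show precision. The depth-adjusted ratio of Ptprc, from 16 against 95 counts, was 0.162 (exact 95% interval for counting error 0.089 to 0.28). Cd74 averaged 2.71 ± 1.03 CPM in the higher-number and 12.0 ± 3.05 CPM in the lower-number libraries, with -2.12 ± 0.31 (adjusted p = 0.00268). H2-Ab1 had a log2 fold change of -2.46 ± 0.41 (adjusted p = 0.00352) and Csf1r one of -2.35 ± 0.42 (adjusted p = 0.00434).

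The C1q chains fell by similar amounts with wider errors. The log2 fold change of higher-number over lower-number libraries was -2.38 ± 0.64 (SE) for C1qb, -1.94 ± 0.57 for C1qa and -1.94 ± 0.52 for C1qc, with adjusted p of 0.0178, 0.0240 and 0.0176 in edgeR. Tyrobp had 10 counts in the higher-number and 34 in the lower-number libraries, with a log2 fold change of -1.94 ± 0.61 (adjusted p = 0.0307 in edgeR). DESeq2 did not call Tyrobp (adjusted p = 0.109) and called the other 8, beside 18.5% of all genes lower. Limma voom called 9 of 9, beside 21.4%. In 9 of 10 members no higher-number library reached a lower-number one in CPM, a separation in this direction that 28.5% of the genes tested showed. For Tyrobp it rested on depth scaling. Labelled EphA2 null 2 and wild type 2 both had 5 counts, at 0.246 and 0.291 CPM. Ptprc, Csf1r, the C1q chains and Tyrobp passed the filter through the lower-number libraries, as given above. Labelled EphA2 null 1 is the one lower-number library with the null label, and without it edgeR called 1 of 9 members, H2-Aa (adjusted p = 0.0405), and 846 genes in place of 5859. The median log2 fold change of the members was then -2.03.

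Within each range of title numbers the ratio of the genotypes was not in 1 direction for all members. The interaction of genotype and range, added after the data were seen, was called by edgeR for 0 of 9 members, with 0 at an unadjusted p under 0.05. The depth-adjusted ratio of summed counts, labelled EphA2 null over wild type, is given here with exact 95% intervals for counting error only. For H2-Ab1 it was 0.736 (0.551 to 0.975) within the lower numbers, from 72 against 170 counts, and 0.370 (0.184 to 0.752) within the higher numbers, from 20 counts in 2 libraries against 17 in 1. Each library labelled EphA2 null lay below each wild type library of the same range. This order in both ranges held for H2-Ab1 and Csf1r, 2 of the 10 members, beside 9.36% of the genes tested with the range as a term. For both genes it rested in part on depth scaling. Csf1r had 3 and 6 counts in labelled EphA2 null 2 and 3 against 4 in wild type 3. H2-Ab1 had 72 counts in labelled EphA2 null 1 against 63 in wild type 2. For Csf1r the ratio was 0.689 (0.395 to 1.16) within the lower and 0.707 (0.197 to 3.14) within the higher numbers.

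For Cd74 the ratio was 0.917 (0.783 to 1.07) within the lower and 0.647 (0.459 to 0.923) within the higher numbers, and for H2-Aa 0.900 (0.746 to 1.08) and 0.472 (0.280 to 0.807) in the same order. For Ptprc it was 1.38 (0.896 to 2.11) within the lower and 0.943 (0.286 to 4.01) within the higher numbers. The C1q ratios lay between 0.669 and 0.942 within the lower numbers and between 0.494 and 1.26 within the higher ones, and all their intervals held 1. Fitted together with the title number range, edgeR gave log2 fold changes of -0.75 ± 0.40 (SE) for H2-Ab1, -0.53 ± 0.41 for Csf1r, 0.33 ± 0.36 for Ptprc and 0.44 ± 0.59 for Tyrobp, each with an adjusted p of 0.9999. The smallest unadjusted p was that of H2-Ab1, 0.0971.

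**Figure D3:**
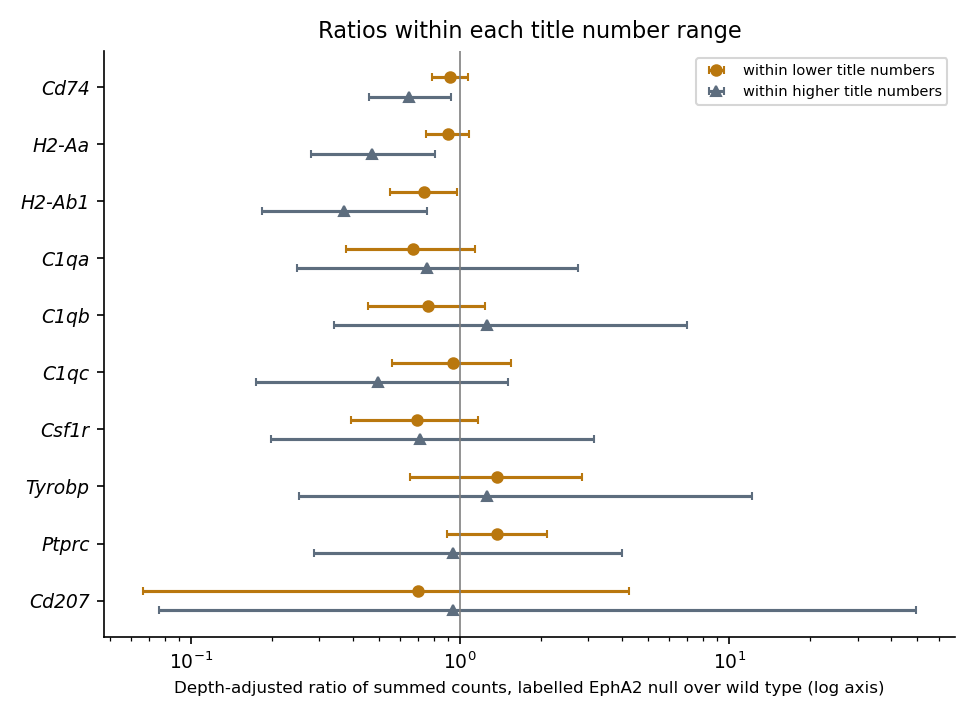
Depth-adjusted ratio of summed counts, labelled EphA2 null over wild type, within the lower (ochre circles) and the higher title numbers (grey triangles), on a log axis with exact 95% intervals for counting error. Most intervals hold 1; those of H2-Ab1 lie below 1 in both ranges, and those of Cd74 and H2-Aa in the higher numbers only.

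Other leukocyte genes were compared in 8 lists of 95 symbols, of which 91 were in the table. Between the genotypes 0 of those that entered the edgeR test were called, with or without the filter, beside 0.00778% and 0.00544% of all genes. Among all 191 genes of the lists outside the members 84 entered the test, with 1 at an unadjusted p under 0.05 in edgeR, and DESeq2 and limma voom also called 0. Between title numbers and without the filter, 82 genes of the 8 lists were tested. Of these, 13 were called lower and 3 higher in the higher-number libraries, beside 16.6% and 17.6% of all genes. The count lower thus lay near the background and the count higher lay under it. H2-Eb1, the beta chain of the second class II molecule, fell too. It had 7.25, 1.33 and 0.971 CPM in labelled EphA2 null 1, 2 and 3 against 7.72, 3.90 and 1.76 CPM in wild type 1, 2 and 3. Its log2 fold change between title numbers was -2.28 ± 0.34 (SE, adjusted p = 0.00289, edgeR). H2-DMa, which helps load peptide on class II molecules, rose with 0.98 ± 0.34 (adjusted p = 0.0451), a call that was lost without the filter. Rfx5, a factor that binds class II promoters, had -0.16 (adjusted p = 0.416), and Ciita, the class II transactivator, had a mean of 0.218 CPM and did not enter the test.

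Of the general leukocyte genes, Laptm5, a lysosomal membrane protein of blood cells, fell in the higher-number libraries with a log2 fold change of -2.04 ± 0.47 (SE), and the actin-binding genes Coro1a and Lcp1 fell with -1.42 ± 0.48 and -0.94 ± 0.32 (adjusted p = 0.00995, 0.0416 and 0.0402, edgeR). Arhgdib fell with -0.51 ± 0.13 (adjusted p = 0.0137), at a mean of 73.1 CPM. Cd52, a surface glycoprotein of leukocytes, rose with 1.20 ± 0.19 (adjusted p = 0.00306). Of the macrophage genes, Cd14, a receptor for lipopolysaccharide, fell with -1.84 ± 0.26 and Lyz2, myeloid lysozyme, with -2.99 ± 0.75 (adjusted p = 0.00255 and 0.0136). Itgam and Cd68, at means of 294.5 and 25.1 CPM, had 0.04 and -0.11 (adjusted p = 0.770 and 0.453). Adgre1, which encodes F4/80, had 14, 1 and 0 counts in labelled EphA2 null 1, 2 and 3 against 7, 5 and 1 in wild type 1, 2 and 3.

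The remaining leukocyte lists held few reads. The 14 T and NK cell genes in the table summed to between 1.49 and 4.13 CPM per library, and Il2rb, a cytokine receptor chain, fell between title numbers with -2.97 ± 0.70 (SE, adjusted p = 0.0111, edgeR). The 8 neutrophil genes, among them Camp and Elane, summed to at most 0.224 CPM per library and did not enter the test. In the dendritic cell list Irf8 and Cd80 had the highest means, 2.61 and 2.10 CPM, and log2 fold changes of 0.77 (adjusted p = 0.0909) and -0.09 (adjusted p = 0.795). Cd79b and Cd79a of the B cell list and Cpa3 and Hdc of the mast cell list were the most abundant of theirs. Cd79b had a mean of 1.68 CPM and Cpa3 one of 3.56 CPM, and neither was called (adjusted p = 0.571 and 0.316).

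Ligands and partners of the members were also measured. Csf1 and Il34, the ligands of Csf1r, averaged 2.60 and 0.780 CPM, with log2 fold changes between title numbers of 0.35 (adjusted p = 0.296, edgeR) and 0.73 (adjusted p = 0.141). Cx3cl1, the membrane chemokine that CX3CR1-bearing myeloid cells bind, rose in the higher-number libraries with 0.84 ± 0.11 (SE, adjusted p = 0.00226), and Tgfb1 rose with 0.71 ± 0.16 (adjusted p = 0.00988). Syk and Plcg2, which act downstream of Tyrobp, rose with 0.51 ± 0.13 and 0.85 ± 0.15 (adjusted p = 0.0144 and 0.00397). They averaged 64.8 and 12.75 CPM, beside 0.358 CPM for Tyrobp, and which cells their reads came from was not tested. The Tyrobp partner Trem2 had 2 counts in the whole table. Of the other complement genes C3 rose with 1.75 ± 0.31 and Cd55, a complement inhibitor, fell with -0.41 ± 0.12 (adjusted p = 0.00397 and 0.0258).

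Some markers of other cells, among them those of the conjunctival list, moved with the members between title numbers. Muc5ac, the mucin of conjunctival goblet cells, had 58.8, 2.21 and 1.68 CPM in labelled EphA2 null 1, 2 and 3, against 38.5, 5.24 and 0.675 CPM in wild type 1, 2 and 3 (log2 fold change of higher over lower numbers -4.97 ± 0.71 SE, adjusted p = 0.00266, edgeR). Muc5b and Agr2 fell with -4.30 ± 0.71 and -1.73 ± 0.25 (adjusted p = 0.00347 and 0.00273). The conjunctival list summed to between 3126 and 5729 CPM in the higher-number libraries and between 4639 and 6011 CPM in the lower-number ones. Of its 7 tested genes 3 were called lower, beside 21.6% of all genes tested, or 8 of 8 without the filter, beside 16.6%. Its abundant keratin genes Krt13 and Krt4 had -0.45 and -0.63 (adjusted p = 0.0598 and 0.182). The corneal epithelial list summed to between 75460 and 82630 CPM in the higher-number and between 58170 and 66020 CPM in the lower-number libraries, where Aldh3a1, Tkt and Cdh1 were called higher in the higher-number libraries (log2 fold changes 0.61, 0.36 and 0.83). Vim, a gene of mesenchymal cells and leukocytes, fell with -1.97 ± 0.34 (adjusted p = 0.00400). In the class I list, B2m, the light chain of MHC class I, fell with -1.16 ± 0.40 (adjusted p = 0.0462) and was highest in wild type 1 at 171 CPM, while Tap2 and Tapbp of the class I pathway rose with 0.66 and 0.43. The haemoglobin gene Hbb-bs had 0.413, 0 and 0.0373 CPM in labelled EphA2 null 1, 2 and 3, against 3.04, 0.291 and 0.135 CPM in wild type 1, 2 and 3. The part of these markers in the result for the members was not tested.

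**Figure D4:**
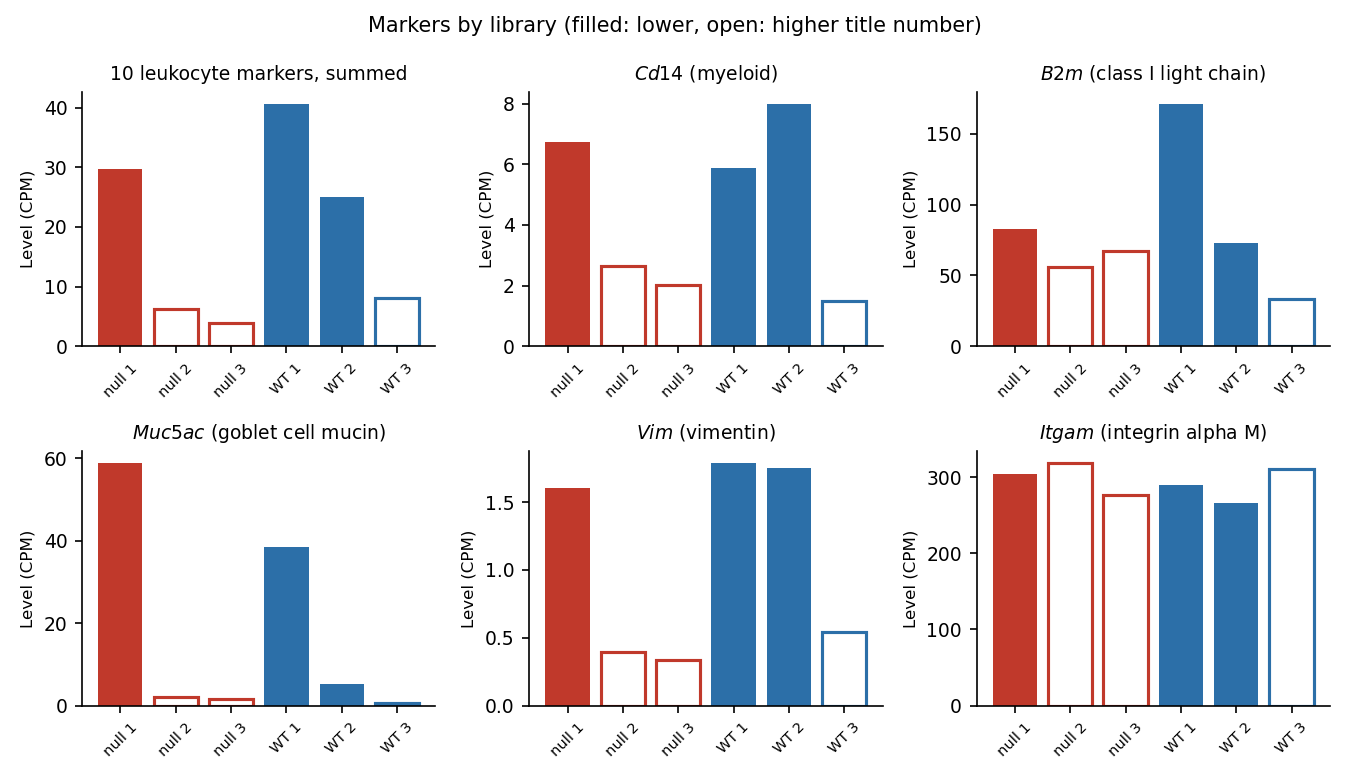
Level in CPM per library of the 10 members summed and of 5 other genes; red bars are libraries labelled EphA2 null, blue bars wild type, filled bars lower and open bars higher title numbers. The summed members, Cd14, Muc5ac and Vim are lower in every open bar than in every filled one, B2m is highest in wild type 1, and Itgam lies between 266 and 318 CPM throughout.

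Slc4a11 of the corneal endothelial list, Pecam1 of the vessel list and Ptgds of the stromal list rose in the higher-number libraries, with log2 fold changes of 1.02, 1.75 and 1.69 (adjusted p = 0.00771, 0.0248 and 0.0286, edgeR). Mbp and Pmp22 of the nerve list had 0.67 and -0.27, Pmel and Dct of the melanocyte list 0.11 and -0.57, and Alas2 of the erythroid list -0.24, none of them called. No tested gene of the corneal endothelial, vessel, nerve and melanocyte lists was called lower.

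Outside all lists, the level profile of the members over the 6 libraries was most like those of Taf2 (r = 0.997), Mrpl32 (r = 0.997), Naaladl2 (r = 0.996), Zfp637 (r = 0.995), Tbc1d4 (r = 0.993), Serpinb10 (r = 0.993), Tasp1 (r = 0.991) and Adh6b (r = 0.987). The measure is Pearson's r of the log2 CPM with the mean of the 8 standardised members that entered the genotype test, over 6 libraries and 11922 genes whose mean reached 1 CPM. The libraries form 2 ranges, so r mostly records the step between them, and it is given as a description. The steps were small beside those of the members. Taf2, a subunit of a general transcription factor, had 36.3, 29.2 and 29.2 CPM in labelled EphA2 null 1, 2 and 3 against 37.0, 35.4 and 31.0 CPM in wild type 1, 2 and 3. Serpinb10, a serine protease inhibitor gene, had 11.7, 5.02 and 4.89 CPM in labelled EphA2 null 1, 2 and 3 against 13.9, 12.6 and 5.47 CPM in wild type.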

How the data were processed

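The authors deposited raw counts per Ensembl gene for 6 libraries, per the file header and the values, which are whole numbers. The design text names a miRNeasy kit and an Illumina HiSeq. The sources used here do not give the aligner, counting program, strand setting or build. Names, exon lengths and positions come from GENCODE M21 on GRCm38 (24942 of 25006 identifiers matched) and promoters from RefSeq, GRCm38.p6. The table held 0 columns of other samples.

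Genes were filtered with filterByExpr, TMM-normalised and tested with edgeR 4.0.16 in R 4.3.3 (glmQLFit, glmQLFTest). An adjusted p (Benjamini-Hochberg over all genes tested) under 0.05 was a call. Genotype was the only term of the first comparison; the title number range was compared with genotype as a term. Standard errors were taken as the absolute log2 fold change over the root of the F statistic. DESeq2 1.42.0 and limma voom 3.58.1, other scalings and filters, each library left out, and samples sharing a title number summed were alternatives. The summed samples were used between the genotypes only. The comparison of title numbers was not run on them, so it counts libraries that share a number separately. The fits were first tested on simulated data, with 50 genes changed at each fold size. The genotype fit recovered 4% of 1.5-fold, 44% of 2-fold and 98% of 4-fold changes. The fit of title numbers recovered 52%, 88% and 100% in the same order. Recovery at the low counts of most members was not given separately.

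Members and lists were chosen with earlier results of these data known. Named are all members, Epha2, in each list up to 6 genes called between title numbers or else its 2 most abundant genes, and the 8 most similar genes. Genes outside this rule (Kera, Lum, Kdr, Krt5, Krt12, Krt13, Krt4, Rfx5, Ciita, Itgam, Cd68, Adgre1, Csf1, Il34, Trem2, Hmgxb3) were chosen after their values were seen. A gene that the rule names is not reported here. Intervals are exact and cover counting error only.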

Additional observations from a re-analysis of the deposited data

How the results depend on the processing

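Between the genotypes 0 members were called by every alternative that gave a test. No paired analysis was made because the titles give no replicate number shared between the genotypes. Each title also ends in a letter, N, R or B, which was not used. Leaving out 1 library moved the members' median log2 fold change between -2.08 and -0.28. Ptprc changed sign: it was -2.01 to 0.07 (0.0707 without labelled EphA2 null 3) with 1 library left out, 0.33 when the model held the title number range, 0.28 with that term in DESeq2, a fit added after the data were seen, and 0.20 after summing samples of 1 title number. Over all genes, DESeq2 called 4 higher and 2 lower, DESeq2 with the range 6 higher and 12 lower, and summed samples gave 0 higher. Between title numbers 3 members entered and were called with a mean of at least 1 CPM, since the other members fell under that filter. With 1 library left out, 1 to 9 members were called, their median ran from -2.34 to -2.03, and over all genes 595 to 3221 were called higher and 251 to 2582 lower. The call of C1qa was lost without wild type 1, 2 or 3 or labelled EphA2 null 1 (log2 fold change -2.03 to -1.86), that of C1qb without wild type 3 (-2.11) or labelled EphA2 null 1 (-2.86), and that of Tyrobp without wild type 3 (-1.98) or labelled EphA2 null 1 (-1.85) or 3 (-1.61). Tyrobp did not enter the test without wild type 1. The calls of Ptprc, Csf1r, C1qc, Cd74 and H2-Ab1 were lost without labelled EphA2 null 1, with log2 fold changes of -2.39 to -1.42. The cause was not tested. Depth limits Cd207 (11 counts) and Tyrobp (44 counts). In the higher-number libraries it also limits Csf1r (13 counts in all), Ptprc (16 counts) and each C1q chain (15 to 18 counts).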
